A study of Mus musculus with 8 samples.

Results

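The genes described here encode 9 components of the complement system in the inguinal white fat depot (iWAT) of the mouse, which lies under the skin of the groin. They were taken by name from the 54532 genes of the expression table: C1qa, C1qb, C1qc, C4b and C2 of the classical pathway, C3, and Cfb, Cfp and Cfd of the alternative pathway. Cfd encodes adipsin (complement factor D), and it was set beside the adipocyte genes Adipoq and Plin4. The libraries came from male mice on a high-fat diet (HFD), 4 labelled wild type (WT) and 4 labelled KLF10AKO, in which the transcription factor KLF10 is deleted in adipocytes. The study asks what KLF10 does in fat metabolism. The sources used here do not give age, strain, the driver of the deletion or the animals behind each library. The p-values therefore reflect only the variation among these 8 libraries, which may be technical.

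Complement is a cascade of plasma and cell-surface proteins that marks particles for uptake and can open pores in membranes. In the classical pathway the C1q complex binds a target, and its proteases cut C4 and then C2 to build an enzyme that cleaves C3. In the alternative pathway adipsin cuts factor B that is bound to C3 fragments, which makes another C3-cleaving enzyme, and properdin (Cfp) holds that enzyme together. Adipsin is known as a protein that adipocytes secrete in large amounts, whereas macrophages are the usual source of C1q and myeloid cells of properdin.

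Levels are FPKM, fragments scaled by gene length and by a library size that the authors had adjusted between samples. Whole reads recovered from them came to 15537863 to 17499132 per library. Klf10 itself stood at 18.2 ± 2.09 FPKM across WT libraries and 9.60 ± 0.157 across KLF10AKO libraries (SD, n = 4 each), a log2 change of -0.88 (limma adjusted p = 8.96e-06) that turned to 0.83 when libraries were scaled to the adipocyte markers described next. The 2 groups differed in far more than Klf10: of 16012 genes tested with limma, 74.3% passed an adjusted p of 0.05, 39.4% higher and 34.9% lower in KLF10AKO. Summed FPKM of 10 B cell markers ran from 131 to 262 in WT and from 2077 to 2940 in KLF10AKO. Of this WT sum nearly all was Ighm, at 191 ± 56.4 FPKM (SD, n = 4). Summed levels of 18 adipocyte markers ran from 19585 to 21875 in WT and from 5011 to 7437 in KLF10AKO. The 12 skeletal muscle markers summed to 6264, 4746, 11064 and 63.9 in KLF10AKO replicates 1 to 4 and to 174 to 231 in WT. The 8 trophoblast markers, genes of the placenta, summed to 25.9 to 59.2 in WT and to 1.32 to 2.59 in KLF10AKO, where 6 of them were at 0. The part of these differences in the results below was not tested except where a value is given. In bulk tissue, fewer cells of a type and less RNA per cell cannot be told apart.

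All 9 complement genes passed in limma's test (adjusted p from 3.99e-07 to 0.0159), 2 higher and 7 lower in KLF10AKO, against 39.4% and 34.9% of all genes tested. C3 rose 2.54-fold and Cfp 1.34-fold, while C4b fell the most, to 36.1% of its WT level. Cfd fell to 70.5% of WT, against 28.7% for Adipoq and 30.9% for Plin4. The 4 KLF10AKO values lay wholly above or wholly below the 4 WT values for each of the 9 genes, as they did for 69.2% of all genes tested (36.2% above and 33.0% below). The median log2 change of the 9 was -0.44, beside 0.05 over all genes. These directions are relative to the other mRNA of a library, on the library size that the authors had adjusted, and are not plain shares of the reads. When every library was scaled to the 18 adipocyte markers, which moved the median of all genes by 1.50 on the log2 scale, 8 of the 9 were higher and C4b (0.31, limma adjusted p = 0.0538) did not pass, against 90.0% of all genes higher and 0.568% lower. With TPM 3 of the 9 were lower (22.6% of all genes) and 2 higher (40.8%), and when only replicate 4 stood for KLF10AKO the counts were again 3 (29.7%) and 2 (32.4%). TPM moved that median by 0.21 and quantile normalization by -0.20.

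**Figure D1:**
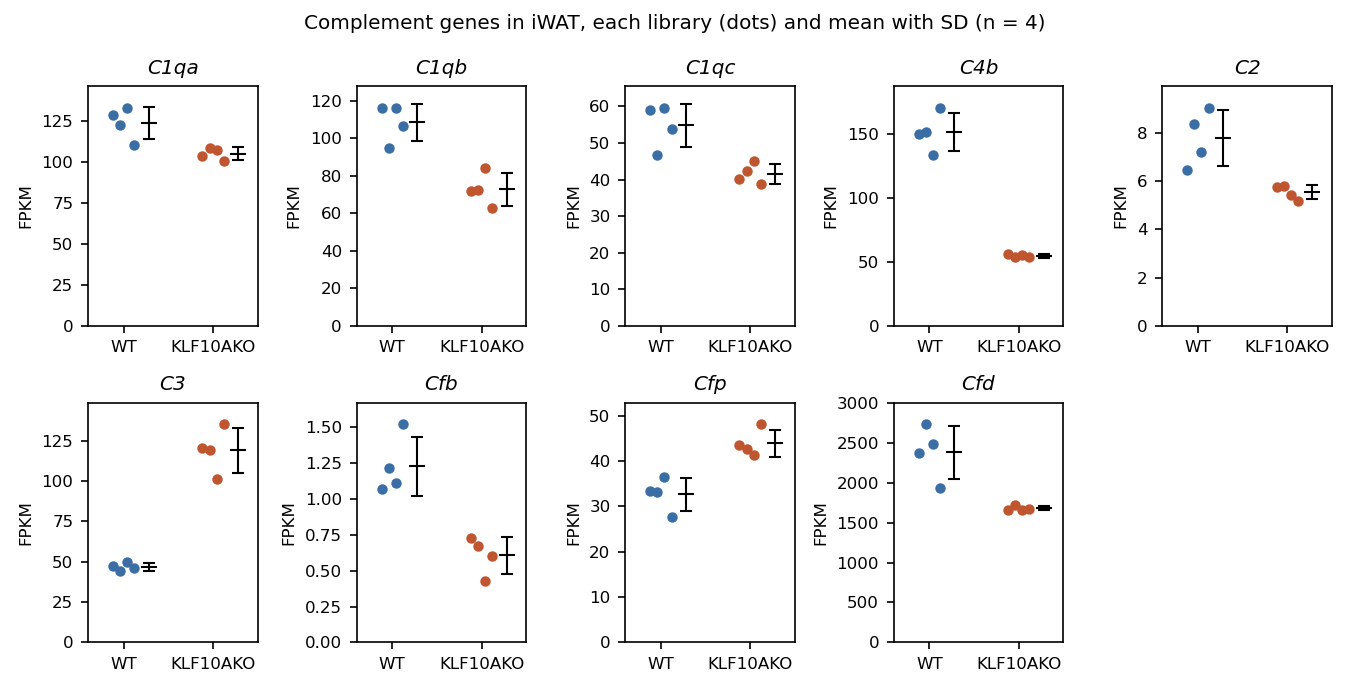
FPKM (vertical axes, each from 0) of the 9 complement genes in every WT (blue) and KLF10AKO (orange) library, with the mean and SD of the 4 libraries beside them. C3 and Cfp are higher in KLF10AKO and the other 7 lower with the authors' scaling; with scaling to adipocyte markers those 7 turn to higher (C4b, at 0.31, without passing; C1qa also at 0.01 with quantile normalization), and the groups of dots do not overlap in any panel.

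Adipsin was the most abundant of the 9 transcripts in both groups and took 81.7% ± 2.40 of their summed FPKM across WT libraries and 79.1% ± 0.191 across KLF10AKO libraries (SD, n = 4 each). Cfd (ENSMUSG00000061780, mm10 chromosome 10, 79890853 to 79892655, plus strand, 922 bases) measured 2366, 2730, 2489 and 1937 FPKM in WT replicates 1 to 4, against 1661, 1716, 1662 and 1675 in KLF10AKO replicates 1 to 4. The KLF10AKO libraries were nearly level, with a highest value 1.03 times the lowest, while WT spread over 1.41 times and its replicate 4 came nearest to KLF10AKO. Each value rests on 26229 to 41863 reads. The log2 change was -0.49 (standard error 0.132, 95% interval -0.79 to -0.19, limma adjusted p = 0.00812). Without the filter on low genes the same change had an adjusted p of 0.223, with TPM it was -0.28 and with quantile normalization -0.09 (adjusted p = 0.170 and 0.635, limma), so the fall of adipsin itself depends on the processing.

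Adipoq, which encodes the hormone adiponectin (ENSMUSG00000022878, chromosome 16, 23146536 to 23158028, plus strand), measured 1956, 2096, 2136 and 1811 FPKM in the WT libraries, against 585, 575, 672 and 464 in the KLF10AKO libraries. Plin4, which encodes the lipid droplet coat protein perilipin 4 (ENSMUSG00000002831, chromosome 17, 56100591 to 56109803, minus strand), measured 955, 892, 889 and 1011 FPKM in the WT libraries, against 302, 275, 316 and 264 in the KLF10AKO libraries. For both genes every KLF10AKO library was far below every WT library. Their log2 changes were -1.81 and -1.70 (standard errors 0.131 and 0.0906, limma adjusted p = 2.49e-06 and 4.41e-07).

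The ratio of 2 genes within a library does not depend on how that library was scaled, apart from the 0.5 FPKM added to each, which matters only for low genes. The log2 ratio of Cfd to Adipoq was 0.27, 0.38, 0.22 and 0.10 in WT and 1.51, 1.58, 1.31 and 1.85 in KLF10AKO. Per unit of length, adipsin transcripts thus went from 1.18 times those of Adipoq to 2.95 times, a shift of 1.32 on the log2 scale (0.24 ± 0.118 to 1.56 ± 0.226, SD, n = 4 each). The exact two-sided permutation p was 0.0286, the smallest that 4 against 4 libraries can give, and 0.0429 after Benjamini-Hochberg adjustment over the 12 ratios computed. The log2 ratio of Cfd to Plin4 rose likewise, from 1.34 ± 0.294 to 2.54 ± 0.133 (SD, n = 4 each, exact permutation p = 0.0286, adjusted 0.0429). By contrast the log2 ratio of Adipoq to Plin4 was 1.09 ± 0.197 in WT and 0.98 ± 0.127 in KLF10AKO, a difference of -0.11 that did not pass (exact permutation p = 0.371). In KLF10AKO replicate 4 alone, where adipocyte markers were lowest, the Cfd to Adipoq shift was 1.61, and leaving out each library in turn gave 1.22 to 1.40.

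**Figure D2:**
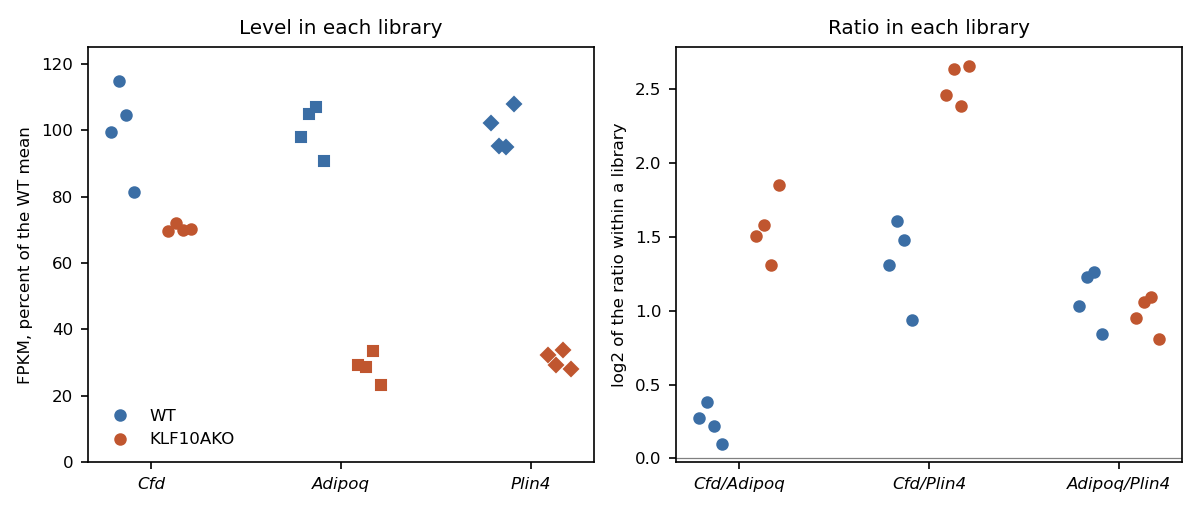
Left, FPKM of Cfd, Adipoq and Plin4 in each library as a percentage of that gene's WT mean; right, the log2 of 3 ratios within each library (blue WT, orange KLF10AKO). KLF10AKO libraries hold 70.5% of the WT level of Cfd on average but 28.7% of Adipoq and 30.9% of Plin4, and both ratios with Cfd separate the groups while Adipoq/Plin4 does not.

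The 18 adipocyte markers all passed as lower, with log2 changes from -2.11 for Slc7a10, an amino acid transporter, to -1.25 for Adrb3, the adrenergic receptor of fat cells. None of the 18 had a change as small as that of Cfd. Against their mean log2 level, Cfd shifted from 2.25 ± 0.155 to 3.53 ± 0.218 (SD, n = 4 each, exact permutation p = 0.0286, adjusted 0.0429 over the 12 ratios). After scaling to these markers Cfd stood at 1.28 (limma adjusted p = 3.90e-06), close to the median of all genes under that scaling, 1.55. Adipoq and Plin4 stood at -0.04 and 0.08, but both are among the 18 markers, whose mean level the scaling makes equal between libraries. Under that scaling 90.0% of all genes were higher, 14 of 16 macrophage markers among them, and how much adipsin mRNA came from cells other than adipocytes was not measured.

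RefSeq promoter windows (GRCm38.p6, 250 bases before to 50 bases after the start) were matched for 5 of the 9 complement genes and for Adipoq and Plin4. No window was matched for C1qa, C2, C4b and Cfb. The windows of Cfd (chr10:79890603-79890902, plus strand) and Adipoq (chr16:23146286-23146585, plus strand) are shown because these 2 adipocyte transcripts moved unequally. Capitals mark matches to any of 4 motifs, searched on both strands. These include the Krüppel-like factor core CACCC (reverse complement GGGTG), the GC box GGGCGG and the C/EBP site pattern TTGCNNAA. The last is the interferon response pattern, which is a pair of TTTC runs with any 2 bases between them.
Cfd: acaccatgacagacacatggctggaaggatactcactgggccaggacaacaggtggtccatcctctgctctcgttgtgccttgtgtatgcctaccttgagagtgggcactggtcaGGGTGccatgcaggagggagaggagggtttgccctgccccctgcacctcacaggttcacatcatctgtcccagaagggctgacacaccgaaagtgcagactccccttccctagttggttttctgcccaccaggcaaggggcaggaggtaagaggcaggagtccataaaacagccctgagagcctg
Adipoq: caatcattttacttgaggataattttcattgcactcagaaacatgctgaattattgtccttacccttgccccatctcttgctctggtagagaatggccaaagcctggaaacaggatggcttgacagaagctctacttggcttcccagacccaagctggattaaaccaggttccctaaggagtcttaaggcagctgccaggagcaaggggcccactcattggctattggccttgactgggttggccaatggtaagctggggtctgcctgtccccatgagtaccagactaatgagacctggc
The Cfd window held 1 match, GGGTG starting 135 bases before the start, and the Adipoq window held 0. The Plin4 window, not shown, held CACCC starting 99 and 48 bases before the start, although Plin4 fell much as Adipoq did (log2 changes -1.70 and -1.81). Whether such matches bear on the levels was not tested. CACCC on either strand occurs in 57.5% of all 32851 windows of this length, GGGCGG in 35.7%, TTGCNNAA in 10.8% and the interferon pattern in 3.44%. These are letter matches in a short window and say nothing about binding.

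The 3 chains of C1q, the recognition unit of the classical pathway, are encoded side by side on the minus strand of chromosome 4, and all were lower in KLF10AKO by small factors with the authors' scaling, but higher after scaling to adipocyte markers (C1qa 1.54, C1qb 1.19, C1qc 1.36) and, for C1qa, at 0.01 with quantile normalization. C1qa (ENSMUSG00000036887, 136895917 to 136898803) measured 128, 123, 133 and 110.5 FPKM in the WT libraries, against 104, 109, 107 and 100.3 in the KLF10AKO libraries. The groups lay closest between WT replicate 4 and KLF10AKO replicate 2, without overlap. Its log2 change was -0.23 (standard error 0.0712, 95% interval -0.39 to -0.07, limma adjusted p = 0.0159), and -0.02 with TPM, which did not pass (adjusted p = 0.850). C1qb (ENSMUSG00000036905, 136880129 to 136886187) measured 116, 94.9, 116 and 106 FPKM in the WT libraries, against 71.9, 72.3, 84.3 and 63.0 in the KLF10AKO libraries. It had the largest change of the 3 chains, -0.57 (standard error 0.102, limma adjusted p = 8.00e-04), with KLF10AKO replicate 3 highest and replicate 4 lowest of their group. C1qc (ENSMUSG00000036896, 136889804 to 136893065) went from 54.8 ± 5.97 to 41.5 ± 2.78 FPKM (SD, n = 4 each), with a change on the log2 scale of -0.39 (limma adjusted p = 0.00331).

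The 3 chains assemble in equal numbers, so their ratios were read within libraries. The log2 ratio of C1qb to C1qa was -0.19 ± 0.132 across WT libraries and -0.53 ± 0.136 across KLF10AKO libraries (SD, n = 4 each), a difference that did not pass (exact permutation p = 0.0571, adjusted 0.0762 over the 12 ratios). That of C1qc to C1qa was -1.17 ± 0.151 and -1.33 ± 0.0574 (SD, n = 4 each, exact permutation p = 0.143). Macrophage markers did not move as 1 group beside them: of 16 measured, 4 were higher and 8 lower, with a median log2 change of -0.38 and a summed FPKM of 158 to 180 in WT and 211 to 216 in KLF10AKO. Csf1r, the receptor that macrophages need to survive, stood at 25.2 ± 1.05 and 23.1 ± 0.462 FPKM (SD, n = 4 each, limma adjusted p = 0.0543), and Cd68, a lysosomal marker, at 39.0 ± 10.6 and 28.6 ± 4.87 (adjusted p = 0.0861). Marco, a scavenger receptor, rose from 1.31 ± 0.303 to 59.2 ± 10.7. The mean log2 level of the C1q chains, set against the mean of these 16 markers, was 3.70 ± 0.0608 across WT libraries and 2.99 ± 0.0346 across KLF10AKO libraries (SD, n = 4 each). That mean includes Marco, with a log2 change of 5.04, and was not computed without it. The C1q changes themselves (-0.23, -0.57 and -0.39) lay around the marker median of -0.38, so the lower ratio does not show a fall beyond that of most macrophage markers.

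The proteases that C1q carries were lower as well with the authors' scaling (C1ra did not pass with TPM, -0.16, or in KLF10AKO replicate 4 alone, -0.31), though higher after scaling to adipocyte markers (C1s1 0.94, C1ra 1.37). C1s1, which cuts C4 and C2, went from 80.4 ± 2.49 to 45.2 ± 0.702 FPKM (SD, n = 4 each), with a change on the log2 scale of -0.82 (standard error 0.0486, limma adjusted p = 7.74e-07). C1ra, which activates it, changed by -0.37 (limma adjusted p = 0.00176). Serping1, the inhibitor of both proteases, stood near C1s1 in level, at 93.1 ± 6.63 and 74.5 ± 2.98 FPKM (SD, n = 4 each), and changed by -0.32 (limma adjusted p = 0.00208), or by 1.44 after scaling to adipocyte markers. It did not pass with TPM or quantile normalization (-0.11 in both, limma adjusted p = 0.294 and 0.0900).

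C4b (ENSMUSG00000073418, chromosome 17, 34728380 to 34743882, minus strand), the substrate of that enzyme, measured 150, 151, 134 and 170 FPKM in the WT libraries, against 56.3, 53.6, 55.2 and 53.5 in the KLF10AKO libraries. Its rank among the 9 was 2 in WT and 5 in KLF10AKO, with a narrow spread in the 4 KLF10AKO libraries. The log2 change was -1.46 (standard error 0.0764, 95% interval -1.63 to -1.28, limma adjusted p = 3.99e-07). C4b was lower with TPM and quantile normalization too (-1.25 and -1.28), and at 0.31 after scaling to adipocyte markers. Its near-identical copy C4a was read at 0.154 ± 0.0442 and 0.362 ± 0.0682 FPKM (SD, n = 4 each), so reads shared between the copies make the level of either uncertain.

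C2 (ENSMUSG00000024371, chromosome 17, 34862604 to 34898265) and Cfb (ENSMUSG00000090231, chromosome 17, 34856374 to 34862518), neighbours on the minus strand, encode the related proteases of the classical and the alternative pathway. C2 measured 6.45, 8.37, 7.19 and 9.02 FPKM in the WT libraries, against 5.76, 5.77, 5.41 and 5.18 in the KLF10AKO libraries. Cfb was the least abundant of the 9 and measured 1.07, 1.21, 1.11 and 1.52 FPKM in the WT libraries, against 0.728, 0.671, 0.429 and 0.602 in the KLF10AKO libraries, from 45 to 63 reads and from 22 to 39 reads. Both were lower, by -0.44 and -0.64 on the log2 scale (standard errors 0.101 and 0.135, limma adjusted p = 0.00326 and 0.00213), but higher after scaling to adipocyte markers (1.20 and 0.48), and C2 did not pass with TPM (-0.26, adjusted p = 0.189). Their log2 ratio, Cfb to C2, was -2.25 ± 0.0917 across WT libraries and -2.45 ± 0.148 across KLF10AKO libraries (SD, n = 4 each, exact permutation p = 0.0857). In GENCODE M21 the same-strand gene Gm20547 covers 79.5% of the exon bases of Cfb and 42.8% of those of C2, and it had 1 read in 1 of the 8 libraries. How the authors' counting treated reads that fit both genes is not stated by the labels or notes, so the levels of C2 and Cfb are uncertain.

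C3, the protein on which all pathways converge, went the other way. C3 (ENSMUSG00000024164, chromosome 17, 57203970 to 57228136, minus strand) measured 47.6, 44.1, 49.9 and 46.1 FPKM in the WT libraries, against 121, 120, 101 and 135 in the KLF10AKO libraries. WT was tight, and KLF10AKO replicate 3 was the lowest and replicate 4 the highest of their group. The log2 change was 1.33 (standard error 0.0895, 95% interval 1.13 to 1.53, limma adjusted p = 1.65e-06), and it ran from 1.27 to 3.09 over all 19 alternative analyses. The log2 ratio of C4b to C3 went from 1.67 ± 0.197 to -1.11 ± 0.190 (SD, n = 4 each, exact permutation p = 0.0286, adjusted 0.0429 over the 12 ratios), so that C4b exceeded C3 in every WT library and C3 exceeded C4b in every KLF10AKO library.

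Progenitor and fibroblast markers, genes of cells that also make complement proteins, did not rise with C3: of 12, 10 were lower and 2 higher, with a summed FPKM of 5398 to 6104 in WT and 1867 to 2457 in KLF10AKO. Against their mean log2 level, C3 shifted from -0.11 ± 0.0662 to 2.06 ± 0.344 (SD, n = 4 each, exact permutation p = 0.0286, adjusted 0.0429). The 2 higher markers were Ly6a and Dpp4, which are also known from lymphocytes. All 10 B cell and all 10 T cell markers were higher in the same libraries. Which cells the mRNA of Ly6a and Dpp4 came from was not tested. The log2 ratio of C3 to Cfb, its partner in the alternative pathway, rose from 4.79 ± 0.209 to 6.76 ± 0.141 (SD, n = 4 each, exact permutation p = 0.0286, adjusted 0.0429). Cfb lay near the 0.5 FPKM added before the log. The shift of 1.97 was therefore 1.79 with a pseudocount of 1 and 2.25 with 0.1.

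Properdin, the stabiliser of the alternative enzyme, was the other gene that rose. Cfp (ENSMUSG00000001128, chromosome X, 20925454 to 20931555, minus strand) measured 33.5, 33.1, 36.4 and 27.6 FPKM in the WT libraries, against 43.6, 42.6, 41.3 and 48.1 in the KLF10AKO libraries. As for C3, replicate 3 was lowest and replicate 4 highest in KLF10AKO. The log2 change was 0.43 (standard error 0.0901, 95% interval 0.22 to 0.63, limma adjusted p = 0.00219). Of 8 neutrophil and monocyte markers that could be tested, 6 were higher and 1 lower, S100a8. Against their mean log2 level Cfp shifted from 4.09 ± 0.200 to 2.49 ± 0.0409 (SD, n = 4 each, exact permutation p = 0.0286, adjusted 0.0429), and Plac8 and Ly6c2, which are among the most abundant of these markers, are also expressed by lymphocytes. Of the 10 markers listed, 2 were under the filter. The neutrophil gene Ly6g was at 0 in all KLF10AKO libraries, but its WT level is not given here, so no loss can be read from it. Which cells expressed the 6 higher markers was not tested.

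The windows of C3 (chr17:57228087-57228386, minus strand) and Cfp (chrX:20931506-20931805, minus strand) are shown because these were the 2 of the 9 that rose.
C3: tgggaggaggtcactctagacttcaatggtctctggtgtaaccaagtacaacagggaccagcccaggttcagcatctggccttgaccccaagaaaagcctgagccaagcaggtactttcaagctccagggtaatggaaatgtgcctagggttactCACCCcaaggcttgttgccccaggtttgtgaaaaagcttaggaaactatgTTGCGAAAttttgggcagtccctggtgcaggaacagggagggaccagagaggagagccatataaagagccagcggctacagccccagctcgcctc
Cfp: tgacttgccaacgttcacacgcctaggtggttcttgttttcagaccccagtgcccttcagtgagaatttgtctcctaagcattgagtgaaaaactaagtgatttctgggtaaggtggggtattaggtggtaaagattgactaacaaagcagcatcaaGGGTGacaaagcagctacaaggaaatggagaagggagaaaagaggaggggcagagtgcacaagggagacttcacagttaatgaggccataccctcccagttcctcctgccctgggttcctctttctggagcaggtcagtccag
The C3 window held CACCC starting 95 bases before the start and TTGCGAAA, a match to TTGCNNAA, starting 45 bases before it. The Cfp window held GGGTG starting 93 bases before the start. Neither held GGGCGG or the interferon pattern.

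The other complement genes were read from 4 lists of 49 names, of which 48 are in the table and 27 had the mean of 0.5 FPKM needed for the test. Of the 27, 7 were higher, 13 lower and 7 did not pass, with a median log2 change of -0.26, where 39.4% of all genes tested were higher and 34.9% lower. After scaling to adipocyte markers 20 were higher and 0 lower, where 90.0% of all genes were higher and 0.568% lower. The 21 under the filter include the liver components Mbl2, Colec10, C8b and Cpn1, which were at 0 in all 8 libraries.

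In the lectin and protease list, 5 of 14 could be tested. Fcna, the ficolin A gene, known from macrophages, went from 6.24 ± 1.42 to 2.11 ± 0.797 FPKM (SD, n = 4 each, log2 change -1.40, limma adjusted p = 5.90e-04), but stood at 0.14 after scaling to adipocyte markers, where it did not pass (adjusted p = 0.540). The collectin genes Colec11 and Colec12 did not pass (0.20 and -0.21). Of the terminal components, which form the membrane pore, C6 and C7 fell by 1.25 and 0.95 on the log2 scale (limma adjusted p = 1.02e-04 and 5.82e-04) but stood at 0.34 and 0.51 after scaling to adipocyte markers. C6 stood at 7.76 ± 1.91 and 2.92 ± 0.403 FPKM and C7 at 3.64 ± 0.445 and 1.68 ± 0.455 (SD, n = 4 each). C8g did not pass. Hc, the mouse C5 gene, was at 0.203 ± 0.0246 and 0.269 ± 0.0121 FPKM (SD, n = 4 each), under the filter.

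Among 9 regulators tested, 3 were higher, 4 lower and 2 did not pass, near the shares of all genes (39.4% higher and 34.9% lower). Clu, which encodes clusterin, a secreted chaperone that also holds back pore formation (ENSMUSG00000022037, chromosome 14, 65968483 to 65981547, plus strand), measured 4.73, 4.51, 4.73 and 4.42 FPKM in the WT libraries, against 132, 144, 112 and 163 in the KLF10AKO libraries. It rose by 4.75 on the log2 scale (standard error 0.106, limma adjusted p = 4.39e-09), 30.0-fold in FPKM, and by 5.01 in KLF10AKO replicate 4 alone. Cd55, decay-accelerating factor, which breaks up the C3-cleaving enzymes, went from 11.8 ± 1.30 to 35.3 ± 3.17 FPKM (SD, n = 4 each, log2 change 1.54, limma adjusted p = 8.14e-07). Vtn, vitronectin, which blocks the terminal complex, rose from 5.74 ± 0.447 to 12.6 ± 0.743 (SD, n = 4 each, log2 change 1.07, limma adjusted p = 1.49e-06). Clu, Cd55 and Vtn were also higher with TPM, quantile normalization and scaling to adipocyte markers.

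The membrane inhibitors of pore formation did the opposite. Cd59a measured 258, 238, 279 and 259 FPKM in the WT libraries, against 78.9, 69.5, 97.4 and 51.3 in the KLF10AKO libraries, a log2 change of -1.83 (standard error 0.171, limma adjusted p = 1.29e-05) that is like those of Adipoq and Plin4 in size. Its copy Cd59b changed by -1.59 (limma adjusted p = 3.90e-07), and both lay near 0 under the adipocyte scaling, at -0.06 and -0.02. Cr1l and Cd46, other membrane brakes on C3 cleavage, did not pass (0.03, 95% interval -0.12 to 0.18, and -0.01, 95% interval -0.28 to 0.27).

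Among 10 receptors tested, 4 were higher, 4 lower and 2 did not pass, again near those of all genes, 39.4% and 34.9%. Cr2, the receptor for C3 fragments on B cells and follicular dendritic cells (ENSMUSG00000026616, chromosome 1, 195136811 to 195176716, minus strand), was nearly unread in WT, with 5 to 11 reads per library, and had 2755 to 3692 reads in KLF10AKO. Its FPKM went from 0.0626 ± 0.0215 to 21.8 ± 2.93 (SD, n = 4 each), a log2 change of 5.30 (standard error 0.0974, limma adjusted p = 2.05e-09). All 10 B cell markers were higher in the same libraries. Of 8 follicular dendritic and lymph node stroma markers tested, 6 were higher and 2 lower. The higher ones include Fcer2a, which is also among those 10 B cell markers, so the 2 lists are not separate. Cxcl13 and Ccl21a were higher too, and Ccl21a was at 0 in all WT libraries and at 29.8 to 244 FPKM in KLF10AKO. The lower ones were Enpp2, the most abundant of the list in WT (83.9 ± 6.15 against 46.4 ± 1.59 FPKM, SD, n = 4 each, log2 change -0.84, limma adjusted p = 3.73e-06, but 0.92 under the adipocyte scaling), and Ltbr (-1.07). Itgb2, the shared chain of the phagocytic complement receptors, rose from 14.9 ± 2.79 to 44.7 ± 4.10 FPKM (SD, n = 4 each, log2 change 1.57, limma adjusted p = 4.09e-06). Of its partner chains, Itgax passed at 0.41 (limma adjusted p = 0.0286; it did not pass in KLF10AKO replicate 4 alone, adjusted p = 0.346, or with quantile normalization, 0.20, adjusted p = 0.208) and Itgam did not (0.16). C1qbp, a C1q-binding protein of mitochondria and the cell surface, rose by 0.53 (limma adjusted p = 1.29e-04).

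Of the receptors for the small fragments cut from C3 and C5, C3ar1 and C5ar1 were lower and uneven between KLF10AKO libraries. C5ar2 did not pass (-0.26, limma adjusted p = 0.215), and its groups overlapped. C3ar1 measured 5.60, 6.09, 6.10 and 6.52 FPKM in the WT libraries, against 2.67, 2.17, 4.14 and 0.750 in the KLF10AKO libraries. C5ar1 measured 10.1, 11.0, 9.07 and 10.7 in the WT libraries, against 3.57, 3.05, 5.21 and 1.50 in the KLF10AKO libraries. Both were highest in replicate 3 and lowest in replicate 4, and their log2 changes were -1.31 and -1.57 (standard errors 0.336 and 0.271, limma adjusted p = 0.00636 and 6.44e-04). In replicate 4 alone those changes were -2.39 and -2.41, and after scaling to adipocyte markers they were 0.21 and 0.04 without passing. Lrp1 and Cd93, which have been described as C1q-binding receptors, fell by 1.63 and 1.30 (limma adjusted p = 9.01e-07 and 1.26e-05) and lay at 0.11 and 0.42 after that scaling. Vsig4, a macrophage receptor for C3 fragments, was under the filter at 0.169 ± 0.117 and 0.0186 ± 0.0372 FPKM (SD, n = 4 each).

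The order of levels among the 9 shifted between the groups. In WT it ran Cfd, C4b, C1qa, C1qb, C1qc, C3, Cfp, C2 and Cfb, with means of 2381, 151, 124, 108, 54.8, 46.9, 32.6, 7.76 and 1.23 FPKM. The libraries of C1qa and C1qb overlapped there, as did those of C1qc and C3, and no other neighbours did. In KLF10AKO it ran Cfd, C3, C1qa, C1qb, C4b, Cfp, C1qc, C2 and Cfb, with means of 1679, 119, 105, 72.9, 54.6, 43.9, 41.5, 5.53 and 0.608 FPKM. There the overlapping neighbours were C3 with C1qa and Cfp with C1qc.

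The KLF10AKO libraries also differed among themselves, in a different way for each gene. The highest KLF10AKO value was 1.03 times the lowest for Cfd, 1.05 for C4b, 1.08 for C1qa, 1.33 for C3, 1.34 for C1qb and 1.45 for Adipoq. Replicate 3 lay at 85.0% of the group mean for C3, 80.9% for Clu and 82.4% for the summed B cell markers, and replicate 4 at 113%, 119% and 117%. For Adipoq, C1qb and the summed adipocyte markers the same replicates lay on the other side, at 117%, 116% and 120% in replicate 3 and 80.9%, 86.4% and 80.6% in replicate 4. Skeletal muscle markers had 200% of their mean in replicate 3 and 1.16% in replicate 4. With 4 libraries no correlation was computed, and the part of B cell, adipocyte or muscle RNA in this spread was not tested.

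**Figure D3:**
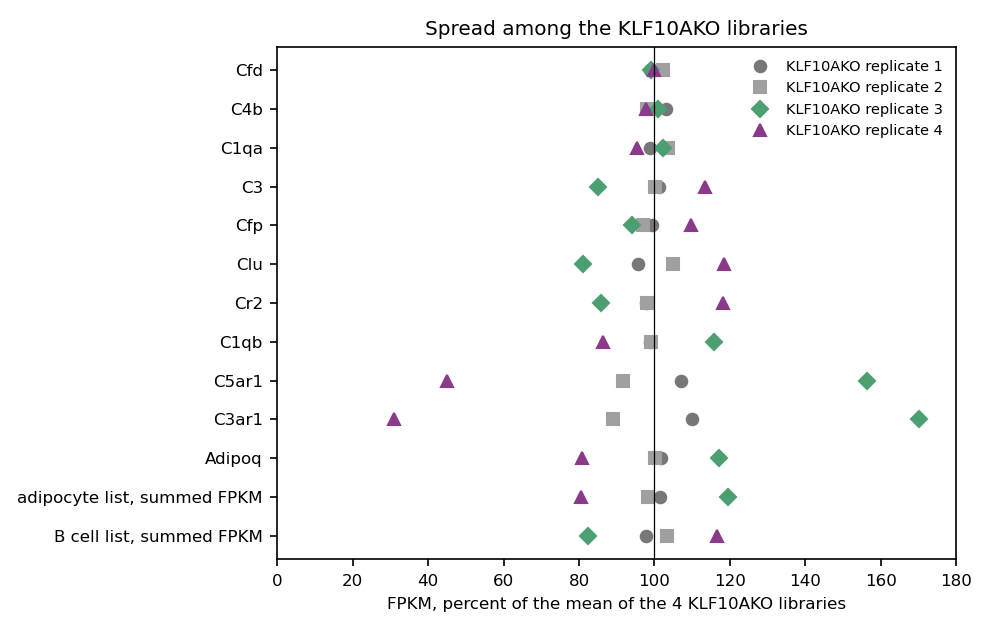
FPKM of single genes and of 2 marker lists in each KLF10AKO library as a percentage of the mean of the 4 (horizontal axis; each symbol is a library). Cfd and C4b stay within a few percent of their means, while C3, Clu and Cr2 are highest in replicate 4 and Adipoq, C3ar1 and C5ar1 lowest there.

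The 5 protein-coding genes whose centred log2 pattern over the 8 libraries lay nearest to that of Cfd, among 4749 with a mean of at least 10 FPKM, were Ptpa, Aifm1, Bcat2, Marc2 and Txndc17, with root mean square differences of 0.0238 to 0.0622. Their log2 changes ran from -0.43 for Aifm1 to -0.57 for Marc2. This distance includes the difference between the groups, so the 18 adipocyte markers, with changes from -2.11 to -1.25, could not be among them. For C1qa the nearest were Cenpx, Dnajb6, Akr1b3, Rad21 and Slc25a46 (0.0286 to 0.0454). For C3 they were the ribosomal protein gene Rpl3, Ly6e, Snx2, Elf1 and Bloc1s2 (0.0413 to 0.0549), with log2 changes from 1.29 to 1.37. For Cfp they were Cib1, Cct2, Ccng2, Angel2 and Eif3k (0.0568 to 0.0771).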

How the data were processed

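Poly(A) RNA of iWAT was sequenced in 8 libraries, 4 WT and 4 KLF10AKO, after random-hexamer priming, per the labels' protocols. HISAT2 2.0.5, featureCounts 1.5.0-p3, edgeR 3.22.5 and the mm10 genome come from the submitters' processing notes, which state neither the role of each tool nor the annotation or strand setting. The authors deposited FPKM with gene lengths beside them, per the file headers. FPKM times length was a whole multiple of 1 step per library within 0.01 of a read for 100% of values, so whole reads were recovered, and their total was 1.05 to 1.09 (WT) or 0.901 to 0.939 (KLF10AKO) of the library size that the step implies.

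Log2(FPKM + 0.5) of 16012 genes with a mean of at least 0.5 FPKM was fitted with limma 3.58.1 (R 4.3.3, eBayes with trend, no covariate), with two-sided p-values adjusted by Benjamini-Hochberg over all of them and a threshold of 0.05. Fold changes on that scale are understated for low genes. Ratios within a library, 12 in all, had exact two-sided permutation tests, adjusted over the 12. On data simulated from WT means with 14900 genes tested, the 4 against 4 fit recovered 94% of 100 genes changed 2-fold and 60% of 100 changed 1.5-fold, with 4.35% of calls false. The simulation gave both groups 1 WT dispersion and changed few genes, where 74.3% passed in the data. Its rates may therefore not hold for these libraries. The members, lists, tests and alternatives were chosen with earlier results of these data known. Named genes were the 9 components, Klf10, Adipoq, Plin4, every other complement gene above the filter, the 3 most abundant genes of each of 10 cell type lists and the 5 nearest patterns to Cfd, C1qa, C3 and Cfp. Others named (Slc7a10, Adrb3, S100a8, Ly6g, Dpp4, Cxcl13, Ltbr and genes under the filter) were chosen after their values were seen. Endothelial markers were lower in 7 of 9 tested and higher in 1. Placental markers were lower in all 7 tested and muscle markers higher in 10 of 11. Some genes of these lists are not reported here. Where a symbol had several rows, the one with the highest mean was used.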

Additional observations from a re-analysis of the deposited data

Results flagged for a closer look

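In 202 groups of 4 libraries, 10 held a library that stood apart from the other 3 by more than Dixon's 95% limit, which chance does in about 1 group in 20. None of the 9 complement genes, Adipoq or Plin4 was among them. Itgb2 was at 19.0 FPKM in WT replicate 4 against 13.1 to 13.8 in the other WT libraries. C1qbp was at 26.1 FPKM in KLF10AKO replicate 2 against 23.9 to 24.2. Among ratios, C1qc to C1qa was -1.24 on the log2 scale in KLF10AKO replicate 3 against -1.36 to -1.35, and Cfp to the neutrophil and monocyte list was 2.55 in KLF10AKO replicate 1 against 2.47 in the others. Among cell type markers, Ly6a was at 170.3 FPKM in WT replicate 3 against 158 to 159, Acta1 at 213 in WT replicate 4 against 160.5 to 169, and in WT replicate 2 the endothelial genes Cdh5 and Pecam1 were lowest, at 78.6 against 97.6 to 101 and at 48.5 against 52.7 to 53.3. Of the genes nearest in pattern, Snx2 was at 48.6 FPKM in WT replicate 3 against 43.5 to 44.3 and Angel2 at 13.6 in KLF10AKO replicate 3 against 14.7 to 14.9.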

How the results depend on the processing

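C3 and Cfp were higher and past the threshold in all 19 alternative limma analyses. With each library left out in turn, the 9 complement genes gave 2 higher and 7 lower calls in all 8 fits. Over all genes the same fits gave 5991 to 6269 higher and 5307 to 5593 lower calls, so steady calls were not particular to the 9. Scaling to adipocyte markers gave 8 higher and 0 lower calls among the 9 (15050 and 95 over all genes) and turned C1qa to 1.54, C1qb to 1.19, C1qc to 1.36, C2 to 1.20, C4b to 0.31, Cfb to 0.48 and Cfd to 1.28. Quantile normalization turned C1qa to 0.01 and left Cfd at -0.09 without passing. With TPM, 3 of the 9 were lower, and C1qa (-0.02), C1qc (-0.19), C2 (-0.26) and Cfd (-0.28) did not pass. With no filter Cfd (-0.49, adjusted p = 0.223) did not pass; the cause was not tested. When only replicate 4 stood for KLF10AKO, a lone library assumed to vary like WT, 3 of the 9 were lower, and C1qa (-0.30), C1qc (-0.49), C2 (-0.53) and Cfd (-0.50) did not pass, with fewer samples. Calls over all genes that were higher made up 53.0% on the authors' scale. That share was 64.4% for TPM, 41.2% after quantile normalization and 99.4% under the adipocyte scaling.

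Among ratios, that of Cfb to C2 passed with a pseudocount of 0.1 (-0.44). In KLF10AKO replicate 4 alone, an analysis of the ratios chosen after seeing the data and without a test, Cfd/Adipoq moved to 1.61, Adipoq/Plin4 to -0.28, Cfd/adipocyte list to 1.53, C1qb/C1qa to -0.48, C3/Cfb to 2.16, C4b/C3 to -3.00 and C3/progenitor and fibroblast list to 2.59. With 3 libraries against 4 the exact test cannot go below 0.0571, so those ratios were read as values without a test.

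The replicate numbers did not pair the libraries (correlations of same-numbered deviations 0.0030 to 0.031). A replicate block gave 2 higher and 7 lower calls among the 9 and 6220 and 5506 over all genes. Cfb, with 22 to 63 reads per library, is limited most by depth, and it was not tested at a minimum mean of 2 FPKM.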
